A study of Mus musculus with 4 samples.

Results

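The genes described are the catalytic, core and accessory subunits of Polycomb repressive complex 2 (PRC2) together with the enzymes that remove its mark. The 8 members, out of 16416 genes in the deposited expression table, were taken by symbol: Ezh2, Ezh1, Eed, Suz12, Jarid2, Rbbp4, Kdm6a and Kdm6b. All 8 were found and all 8 had counts in every library. PRC2 places methyl groups on lysine 27 of histone H3 (H3K27), a mark that keeps developmental genes and cell cycle inhibitors silent. Ezh2 carries the catalytic SET domain, and in many tissues it is abundant in dividing cells, whereas its paralog Ezh1 persists in resting cells. Ezh2 is also a published target of the microRNA miR-26a, a small RNA whose seed, a short stretch close to its 5′ end, pairs with target transcripts in their 3′ untranslated regions (3′ UTRs).

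RNA was sequenced from cultured synovial fibroblasts that had grown out of the shoulder joint capsule of mice 1 week after the joint was immobilized, an injury model of frozen shoulder. Passage 2 cells were taken, and the 4 libraries hold 1 group each: miR-26a -/- cells transfected for 24 h with 10 nM of a double-stranded miR-26a mimic, miR-26a -/- cells transfected in the same way with 10 nM of Silencer Negative Control siRNA #1, untransfected miR-26a -/- cells, and untransfected wild-type cells of C57BL6/J mice. Both transfected groups thus carry the knockout, and no wild-type cells were transfected. The labels do not say which of the loci that encode miR-26a was deleted, whether animals were pooled, or how many animals gave each culture.

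No group has a replicate, so differences could not be checked against biological spread and no p-value was computed here. Estimated counts summed to between 17598763 and 19392655 per library. Levels are given as the deposited TPM values, transcript abundances scaled for transcript length and for the total of the library. A log2 ratio compares counts scaled for library size, and the parentheses after it hold an exact 95% binomial interval that covers counting error only. A gene was called when it differed at least 2-fold with an interval that excludes 0, and directions compare libraries rather than conditions. The cells are labelled as fibroblasts, but markers of macrophages were abundant in all libraries. The 10 macrophage markers summed to 29246, 29295 and 30425 TPM in the mimic, negative-control and knockout libraries against 21038 TPM with wild type. None was at 0 in any library. Most of each sum was Lyz2, at 18991 TPM with knockout and 14913 TPM with wild type. Gene by gene, the median log2 ratio of the 10 between knockout and wild type was 1.01. The 10 fibroblast markers summed to 10854, 9338 and 10409 TPM, against 20551 TPM with wild type, again with none at 0. Markers of endothelial cells (3.22 to 4.25 TPM), skeletal muscle (1.04 to 4.82 TPM), adipocytes (62.6 to 246 TPM) and Schwann cells (29.1 to 81.8 TPM) were low in comparison, and in the mimic library Pecam1 and Adipoq were at 0. In such bulk RNA, fewer cells of a type and less RNA per cell cannot be told apart.

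The sequences of the microRNA and of its candidate sites are shown first, since the libraries differ in the loss and the return of miR-26a. The capitals mark bases 2 to 8, the seed. The mature miR-26a and miR-26b sequences are those of RefSeq (GRCm38.p6), and the mimic strands are those of the labels.
miR-26a-5p: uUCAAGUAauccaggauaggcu
miR-26b-5p: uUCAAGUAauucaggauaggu
mimic guide strand: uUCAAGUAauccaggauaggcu
mimic passenger strand: cCUAUUCUugguuccuugcacg
The guide strand of the mimic had 0 differences from miR-26a-5p. Mature miR-26a-5p is encoded both by Mir26a-1 at chr9:119031811-119031832 and by Mir26a-2 at chr10:126995543-126995564, each on the plus strand. MiR-26b-5p, from chr1:74394324-74394344 on the plus strand, has the same seed. The passenger strand differed from the RefSeq miR-26a-1-3p at 1 position, A14C, counted from its 5′ end, with the RefSeq base first.

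A seed site was searched in the annotated 3′ UTRs of GENCODE M21 (GRCm38) as the letters TACTTGA, which pair with bases 2 to 8, as TACTTGAA, the 8-base form, and as ACTTGAA, which pairs with bases 2 to 7 and ends in A, and the 8-base form contains the other 2. Only the sense strand was searched, as a microRNA pairs with the transcript. Of 15798 genes with an annotated 3′ UTR, 11.2% held TACTTGA, 4.84% TACTTGAA and 16.7% ACTTGAA. Among the 8 members, Ezh2 and Suz12 held the 8-base form, Jarid2 held TACTTGA without the final A and, elsewhere, ACTTGAA, and Rbbp4 and Kdm6a held only ACTTGAA. Ezh1, Eed and Kdm6b held none of the 3 forms. The sites of the first 3 genes are shown with up to 30 bases of transcript, with the site in capitals.
Ezh2, chr6:47530282-47530311, minus strand: tcaaatttgaataaagaaTACTTGAActtg
Suz12, chr11:80032853-80032882, plus strand: tttcccagtttaggttttTACTTGAAcatg
Jarid2, chr13:44921020-44921049, plus strand: tcctgtaaattgttttaaaTACTTGAgcct
The site of Ezh2 lay near the end of the RefSeq gene. It began at base 248 of a 3′ UTR of 402 bases and was present in all 4 annotated coding transcripts, and 12 bases separated it from the end of the RefSeq gene, whereas the GENCODE transcripts run on. Which transcript end these cells use cannot be told from gene-level values, so neither can the share of Ezh2 transcripts that carry the site. The letters AATAAA, the usual polyadenylation signal, began 9 bases before the site, which was looked for after the sequence had been seen. Of 809 8-base sites in all 3′ UTRs, 2.22% had AATAAA within the 18 bases before them. The 8-base site of Suz12 stood at base 681 of 1933, was shared by both annotated coding transcripts and was followed by a second, 7-base site at base 900. The TACTTGA of Jarid2 was present in 1 of 3 annotated transcripts.

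Ezh2 (Entrez Gene 14056, chr6:47530274-47595270 in GRCm38) was at 16.43 TPM in the mimic library, 18.02 TPM in the negative-control library, 17.7 TPM in the knockout library and 15.65 TPM in the wild-type library. The lowest level was thus that of wild-type cells, and the 4 levels lay close together. Counts of 381, 449, 407 and 328 stood behind them, in the same order, so that counting error alone spans 14.8 to 18.2 TPM for the mimic and 14.0 to 17.4 TPM for the wild-type library. Ezh1, the second catalytic subunit (14055, chr11:101191115-101226463), was at 17.26, 17.76, 17.53 and 17.05 TPM in the same order. The pair of catalytic genes stood at nearly equal levels, with Ezh2 over Ezh1 at 0.952 in the mimic, 1.01 in the negative-control, 1.01 in the knockout and 0.918 in the wild-type library, and their counting intervals overlapped in each library.

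Eed, which binds the methylated histone tail and stimulates the enzyme (13626, chr7:89954654-89980976), was at 37.89 TPM with the mimic, 36.31 TPM with the negative control, 42.89 TPM in untransfected knockout cells and 34.61 TPM in wild-type cells. The untransfected knockout library was the highest. Suz12, the scaffold that holds the core together (52615, chr11:79993106-80034123), was at 30.87, 33.36, 28.54 and 26.79 TPM in the same order, with the negative control highest and the wild type lowest. Rbbp4, a histone-binding subunit that PRC2 shares with several other chromatin complexes (19646, chr4:129307100-129335370), was the most abundant member at 76.07, 75.42, 73.18 and 75.28 TPM, and its levels were the most even of the 8.

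Jarid2, an accessory subunit that helps to bring PRC2 to chromatin (16468, chr13:44730774-44921643), was at 4.9 TPM with the mimic, 5.46 TPM with the negative control, 5.42 TPM in knockout cells and 9.02 TPM in wild-type cells. The wild-type library stood apart, since its counting interval of 8.2 to 9.89 TPM overlapped none of the 3 others. Kdm6b, a demethylase of H3K27 that inflammatory signals induce in macrophages (216850, chr11:69398508-69420367), had the same shape at 11.07, 10.87, 9.85 and 20.56 TPM. Its interval of 19.4 to 21.8 TPM in the wild-type library also lay above those of the 3 others. Kdm6a, the X-linked demethylase (22289, chrX:18160862-18279936), was at 8.51, 7.93, 8.37 and 8.71 TPM, and its 4 intervals overlapped.

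**Figure D1:**
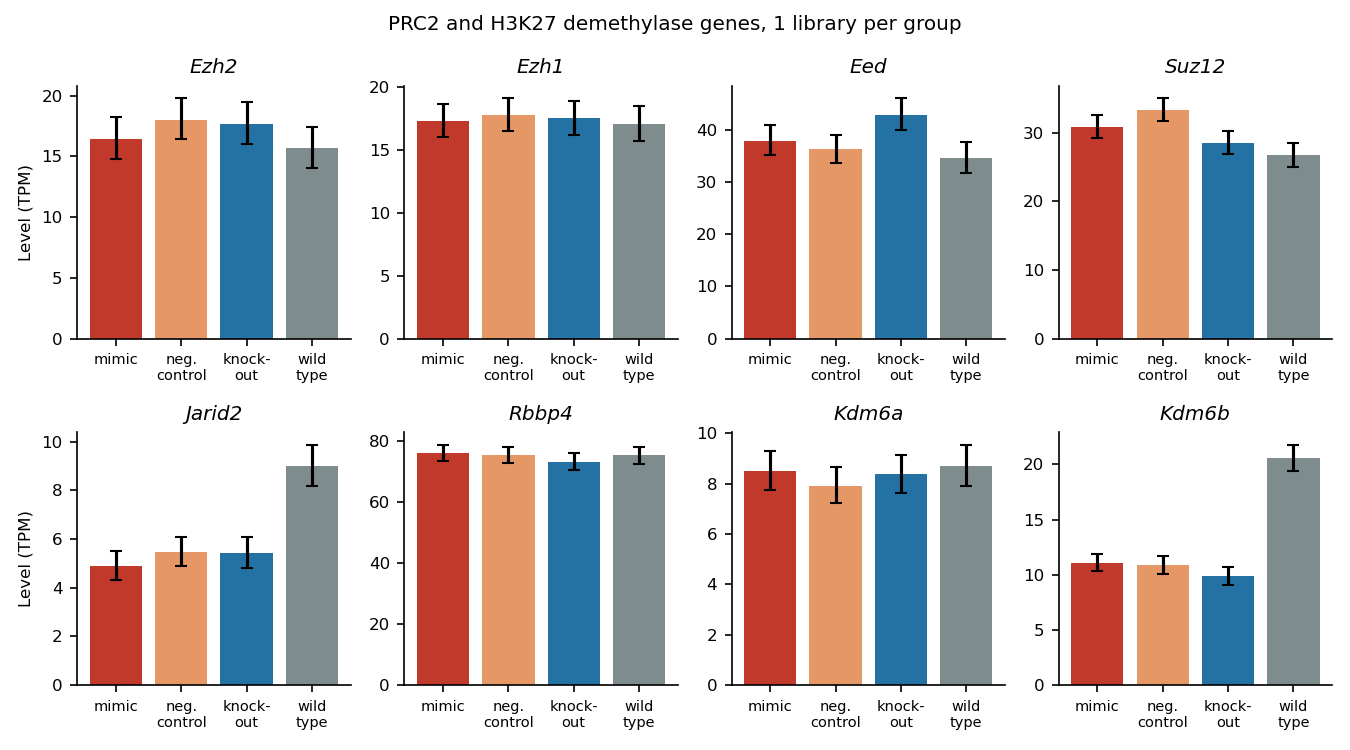
Level of each gene (y axis, TPM) in the mimic, negative-control, knockout and wild-type libraries, 1 bar per library, with exact 95% Poisson intervals for counting error. Jarid2 (9.02 TPM) and Kdm6b (20.56 TPM) are highest in the wild-type library, whereas Ezh2, Eed and Suz12 are lowest there.

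The order of the levels was Rbbp4, Eed and Suz12 in every library, followed by the catalytic pair in the 3 knockout libraries. Eed and Suz12 did not differ beyond counting error in the negative-control library. In the wild-type library Kdm6b, at 20.56 TPM, moved above the catalytic pair, and Jarid2 stood beside Kdm6a with overlapping intervals. In the 3 libraries of knockout cells Jarid2 was the lowest member. The demethylases together came to 19.58, 18.8 and 18.22 TPM in the mimic, negative-control and knockout libraries, against 29.27 TPM with wild type, while Ezh2 and Ezh1 together came to 33.69, 35.78, 35.23 and 32.7 TPM. Kdm6b over Kdm6a was 1.18 in the knockout library and 2.36 in the wild-type library.

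The counts and the deposited FPKM (fragments per kilobase of transcript, scaled to depth) imply a transcript length for each gene in each library. For the 8 members that length differed by at most 1.78% between libraries, for Kdm6a, and for Ezh2 it was 2381, 2377, 2409 and 2375 nucleotides in the mimic, negative-control, knockout and wild-type libraries. Annotated overlaps were few. Ezh2 shares 62 bases with a long non-coding RNA gene that had 0 or 1 counts per library. Another long non-coding RNA gene, which was not found in the expression table, shares 4855 bases with Kdm6b. Sync, with 77 to 158 counts per library, shares 2284 bases with Rbbp4. Whether counting used strand is not given in the sources used here, so reads of such pairs cannot be told apart.

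The first comparison set untransfected knockout cells against wild-type cells. The core subunits and Ezh2 were modestly higher in the knockout library, and Jarid2 and Kdm6b were lower. Ezh2 was 1.25-fold higher, a log2 ratio of 0.32 (0.11 to 0.54). Eed was 1.36-fold higher, at 0.44 (0.28 to 0.60), and Suz12 had 0.22 (0.09 to 0.34). Ezh1 stood at 0.17 (0.01 to 0.33) and Rbbp4 at 0.09 (0.01 to 0.16), both with lower bounds close to 0. Kdm6a stood at 0.08 (-0.11 to 0.27). Jarid2 had a ratio of -0.60 (-0.82 to -0.39) and Kdm6b of -0.93 (-1.07 to -0.79). The interval of Kdm6b includes a 2-fold difference, and that of Jarid2 does not.

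Of the 8 members 0 were called at 2-fold, against 12.9% of 12803 measured genes (5.91% higher and 7.01% lower). At 1.5-fold 2 were called, Jarid2 and Kdm6b, both lower in the knockout library, against 24.5% of measured genes in either direction and 13.2% lower. The counting interval excluded 0 for 7 of 8 members, as it did for 62.9% of all measured genes. The median ratio of the members was 0.13, and that of all measured genes was 0.01. Ratios as far from 0 as that of Ezh2 were found for 46.1% of measured genes, and as far as that of Kdm6b for 14.4%. On deposited TPM the median of all measured genes moved by -0.12. On that scale Ezh2 stood at 0.18 and Eed at 0.31. Rbbp4 at -0.04 and Kdm6a at -0.06 turned below 0, but like Ezh2 and Eed they lay above the shifted median of -0.11. Kdm6b at -1.05 passed 2-fold on this shifted scale.

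**Figure D2:**
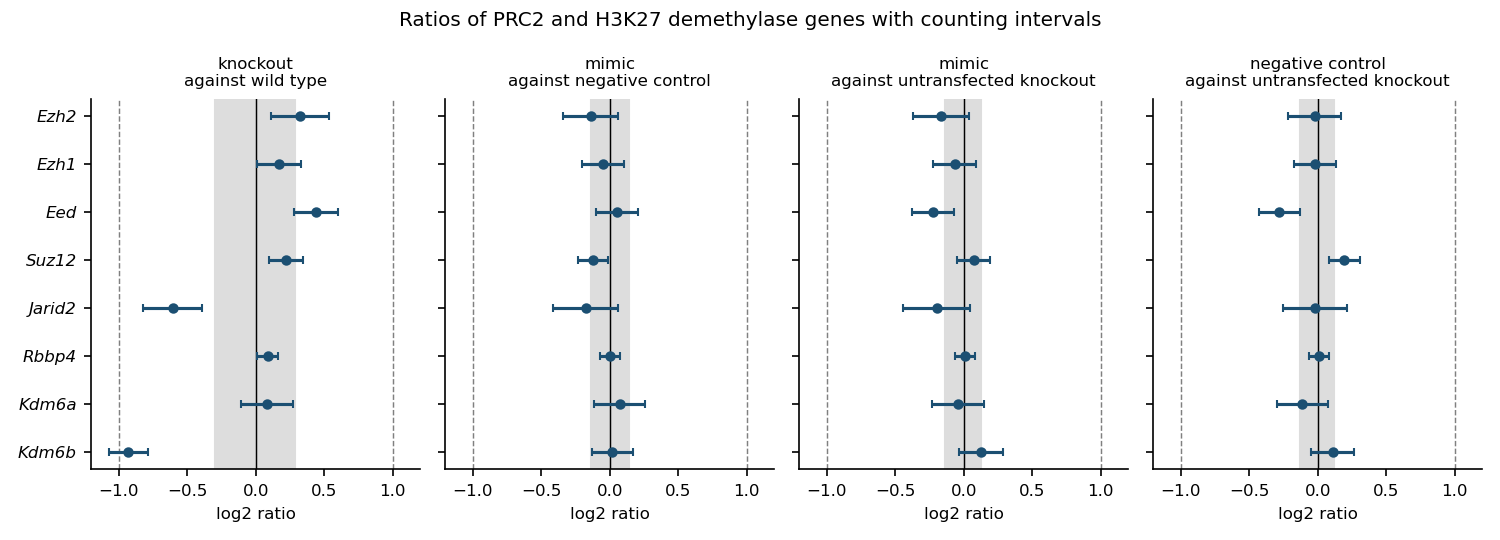
Log2 ratio of each gene (x axis) in the 4 comparisons, with exact 95% binomial counting intervals. Dashed lines mark 2-fold and the grey band holds the middle 50% of all measured genes; in knockout against wild type Jarid2 (-0.60) and Kdm6b (-0.93) lie outside it on the low side, and Ezh2 (0.32) and Eed (0.44) on the high side.

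Genes of cell division and macrophage markers were higher in the same comparison. In it 5.91% of all measured genes were called higher and 7.01% lower. Of the 20 proliferation and E2F target genes, all measured, 15 were at least 2-fold higher and 0 lower, with a median of 1.14. The largest ratios were those of E2f8, an E2F family repressor of the late cell cycle, at 1.88 (1.54 to 2.25), the mitotic kinase Bub1 at 1.60 (1.30 to 1.92), the DNA topoisomerase Top2a at 1.58 (1.47 to 1.69) and the cyclin Ccnb1 at 1.56 (1.33 to 1.80). The lowest of the 20 was E2f1 at 0.36, beside 0.32 for Ezh2. The 10 macrophage markers were all above 0, with a median of 1.01 and 5 called higher. The 10 fibroblast markers were all below 0, with a median of -0.99 and 5 called lower. Beside these list medians, the ratios of Ezh2, Eed and Suz12 above 0 were smaller, and those of Jarid2 and Kdm6b were below 0. The part of division and of cell types in the ratios of the members was not tested.

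Genes of the inflammatory response, in which Kdm6b is induced in macrophages, lay mostly above 0. Of 11 NF-kB response genes 9 were measured, with 7 above 0 and a median of 0.44. Of the 9, 2 were called higher and 0 lower, against 5.91% and 7.01% of all measured genes. The cytokine Tnf stood at 1.56 (1.21 to 1.94), from 18.73 TPM with knockout and 6.94 TPM with wild type, and Ptgs2, the inducible cyclooxygenase, at 1.22 (0.99 to 1.46). Tnfaip3, a feedback inhibitor of NF-kB, had 0.76 (0.50 to 1.04), whereas the chemokine Cxcl1 had -0.63 (-1.10 to -0.20).

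Accessory PRC2 subunits went both ways. Of 9 listed 8 were in the table and measured, with a median of -0.01. Of the 8, 1 was called higher and 0 lower, against 5.91% and 7.01% of all measured genes. Phf19, which ties PRC2 to chromatin through a Tudor domain, had 164 counts (6.1 TPM) in knockout cells and 74 counts (3.11 TPM) in wild-type cells, a ratio of 1.15 (0.75 to 1.57). Its paralogs were apart from it: Phf1 had 14.18 TPM in knockout cells and 23.41 TPM in wild-type cells, a ratio of -0.59 (-0.81 to -0.38), and Mtf2 had a ratio of 0.28 (0.06 to 0.51). Rbbp7, the close relative of Rbbp4, stood at -0.07 (-0.15 to 0.01) and Aebp2, which stabilizes the complex, at -0.04 (-0.15 to 0.07). Epop had -0.39 (-0.89 to 0.10), Lcor 0.13 (-0.06 to 0.33) and Lcorl 0.01 (-0.19 to 0.21). Ezhip was not found by symbol in the expression table. The implied transcript length of Phf19 differed by 18% between libraries, with the extremes at 2570 nucleotides in the mimic and 3032 in the negative-control library, and it was 2815 in the knockout and 2693 in the wild-type library. On TPM, where the median of all genes is lower, the ratio of Phf19 was 0.95, short of 2-fold.

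The partner complex PRC1, which binds the H3K27 mark and ubiquitinates histone H2A, lay mostly below 0. Of its 22 subunits, all measured, 15 were below 0 and 7 above, and the median was -0.24. Of the 22, 1 was called lower and 0 higher, against 7.01% and 5.91% of all measured genes. Cbx6, of the chromobox family that reads the mark, had 32.72 TPM in knockout cells and 79.2 TPM in wild-type cells, a ratio of -1.15 (-1.23 to -1.06). Rybp stood at -0.52 (-0.66 to -0.38) and the Polyhomeotic subunit Phc1 at -0.52 (-0.74 to -0.30). Pcgf5, a subunit of a variant PRC1, had the highest ratio of the list, 0.97 (0.61 to 1.36), with 3.1 TPM in knockout cells and 1.72 TPM in wild-type cells.

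**Figure D3:**
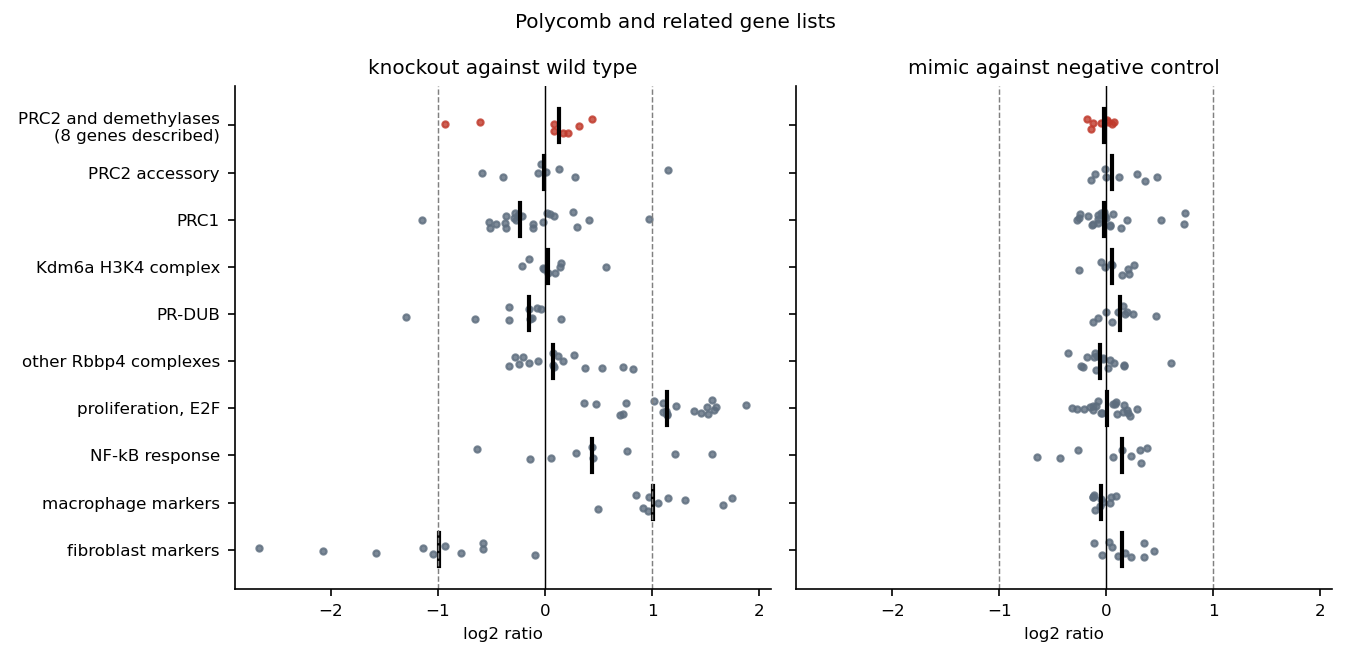
Log2 ratio (x axis) of each measured gene among the 8 members, demethylases included, and in related gene lists. Knockout against wild type is on the left and mimic against negative control on the right. Black bars are medians and dashed lines mark 2-fold. On the left the proliferation list (median 1.14) and the macrophage markers (median 1.01) lie far above the 8 members (median 0.13).

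Complexes that share or cooperate with single members were examined next. In the same comparison 5.91% of all measured genes were called higher and 7.01% lower. In the H3K4 methyltransferase complex that contains Kdm6a, 0 of 9 genes were called, the median was 0.02 and Dpy30, a small shared subunit, had the largest ratio at 0.57 (0.28 to 0.87). Kmt2c, one of its enzymes, had -0.21 (-0.33 to -0.10), Rbbp5 0.15 (0.01 to 0.29) and the enzyme Kmt2d -0.15 (-0.24 to -0.06). In the PR-DUB deubiquitinase, which removes the PRC1 mark, 9 of 10 genes were below 0 and 1 was called lower, the scarce Asxl3 with 24 counts in knockout cells and 61 in wild-type cells, a ratio of -1.30 (-2.08 to -0.63). The transcription factor Foxk1, which recruits it, had -0.66 (-0.76 to -0.56), Mbd5 -0.34 (-0.53 to -0.15) and Mbd6 -0.33 (-0.51 to -0.17). Among 16 genes of other complexes that use Rbbp4, 0 were called and the median was 0.08. The 4 largest were Lin9 of the DREAM complex at 0.82 (0.46 to 1.19), Chaf1a and Chaf1b of the histone chaperone CAF-1 at 0.73 (0.53 to 0.93) and 0.53 (0.22 to 0.85), and Lin54, also of DREAM, at 0.38 (0.15 to 0.60).

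Genes that PRC2 keeps silent in many cell types were mostly scarce. Of 15 developmental regulators 11 were in the table and 4 were measured. Sox2, a stem cell and glial factor, had -1.39 (-1.74 to -1.07) and the forelimb gene Tbx5 -0.31 (-0.59 to -0.03), while Gata6, a mesodermal factor that peritoneal macrophages also use, had 1.09 (0.61 to 1.63). These 3 had counts in every library. The cell cycle inhibitor Cdkn2a, a classical PRC2 target, was abundant, at 196.08 TPM in knockout cells and 189.54 TPM in wild-type cells, a ratio of 0.20 (0.08 to 0.32). Its neighbour Cdkn2b had -0.01 (-0.13 to 0.12), and Cdkn1c had -0.64 (-1.38 to 0.05).

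Kdm6a escapes X inactivation in mice and has a Y-linked relative, Uty, so genes of both chromosomes were set beside it. Uty was at 11.79, 11.43 and 12.01 TPM in the mimic, negative-control and knockout libraries, against 12.03 TPM with wild type, and its ratio was 0.13 (-0.04 to 0.30) between knockout and wild type and 0.03 (-0.14 to 0.19) between mimic and negative control. Transcripts of the 3 other Y-linked genes, Kdm5d, Ddx3y and Eif2s3y, were also present in all 4 libraries, with ratios between knockout and wild type of -0.11 (-0.28 to 0.05), 0.12 (0.03 to 0.21) and 0.29 (0.16 to 0.42). Among the X-linked escape genes Kdm5c had -0.29 (-0.38 to -0.21), Eif2s3x 0.23 (0.16 to 0.30) and Ddx3x -0.06 (-0.10 to -0.01). Of these 7 genes 0 were called between knockout and wild type, against 12.9% of all measured genes. Between mimic and negative control Ddx3y had 0.37 (0.27 to 0.48), Eif2s3y -0.15 (-0.28 to -0.03), Kdm5d 0.06 (-0.10 to 0.22), Eif2s3x 0.24 (0.17 to 0.30), Ddx3x 0.20 (0.15 to 0.25) and Kdm5c 0.04 (-0.04 to 0.13). Against untransfected knockout cells Ddx3y was at -0.26 (-0.35 to -0.16) with the mimic and at -0.63 (-0.73 to -0.53) with the negative control. Xist was not found by symbol in the expression table.

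The mimic puts the guide strand of miR-26a back into knockout cells, and the negative-control siRNA is its matched transfection. Ezh2 was lower in the mimic library than with the negative control by a margin that counting error covers, at 381 against 449 counts and a ratio of -0.14 (-0.34 to 0.06). Suz12, the other gene with the 8-base site, had -0.12 (-0.23 to -0.01), the only member with an interval that excluded 0. Jarid2, with its 7-base site, had -0.18 (-0.42 to 0.06). Ezh1 had -0.05 (-0.20 to 0.10), Eed 0.05 (-0.10 to 0.21), Rbbp4 0.0029 (-0.07 to 0.07), Kdm6a 0.07 (-0.11 to 0.26) and Kdm6b 0.02 (-0.13 to 0.17). The interval of Ezh2 reaches down to -0.34 and includes 0, so a difference between these libraries was not detectable for it at this depth.

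Of the 8 members 0 were called at 2-fold, against 1.21% of 12512 measured genes (0.352% lower), and 0 at 1.5-fold, against 4.54%. The interval excluded 0 for 1 of 8 members and for 38% of all measured genes. Among the 657 measured genes with an 8-base site the median ratio was -0.08, and Ezh2 was above 41.9% and Suz12 above 44.6% of them. For genes with TACTTGA but no 8-base form, with or without ACTTGAA elsewhere, the median of 861 genes was -0.02. Jarid2 was above 23.6% of these. Genes without a site had a median of -0.0026. Of the 10 macrophage and the 10 fibroblast markers 0 were called between these libraries, and their medians were -0.05 and 0.14. Against untransfected knockout cells, among 663 genes with the 8-base site, Ezh2 was above 33.9% and Suz12 above 77.1%, so the place of Suz12 differed between the comparisons.

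**Figure D4:**
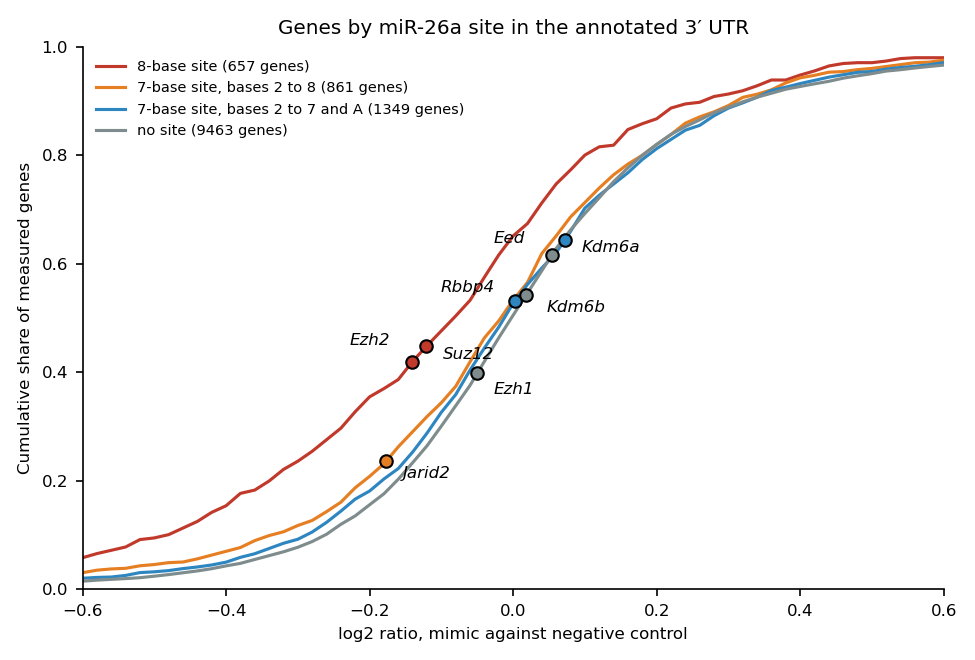
Cumulative share of measured genes (y axis) at or below a log2 ratio of mimic to negative control (x axis), by the miR-26a site in the annotated 3′ UTR; points mark the 8 members on the curve of their own class. The 8-base curve (median -0.08) lies left of the others, and Ezh2 (-0.14) and Suz12 (-0.12) sit near its middle.

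The mimic was next set against untransfected knockout cells, a comparison that shares the mimic library with the one above. Ezh2 stood at -0.16 (-0.37 to 0.04) and Jarid2 at -0.20 (-0.44 to 0.05), close to their ratios to the negative control. Suz12 stood at 0.07 (-0.05 to 0.19). Eed was the member with an interval that excluded 0, at -0.23 (-0.38 to -0.07). Kdm6b had 0.13 (-0.03 to 0.29), Ezh1 -0.07 (-0.22 to 0.09), Kdm6a -0.04 (-0.23 to 0.15) and Rbbp4 0.01 (-0.06 to 0.09). Of the 8 members 0 were called at 2-fold, against 0.734% of 12536 measured genes, and 0 at 1.5-fold, against 2.93%.

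The negative control can also be set against untransfected knockout cells. Suz12 was higher with the negative control, at 0.19 (0.08 to 0.31), and Eed was lower, at -0.28 (-0.43 to -0.13). Ezh2 stood at -0.02 (-0.22 to 0.17), Ezh1 at -0.02 (-0.17 to 0.14), Jarid2 at -0.02 (-0.25 to 0.21), Rbbp4 at 0.01 (-0.06 to 0.08), Kdm6a at -0.11 (-0.30 to 0.07) and Kdm6b at 0.11 (-0.05 to 0.27). Of the 8 members 0 were called at 2-fold, against 1.01% of 12532 measured genes, and 0 at 1.5-fold, against 3.69%. Against untransfected cells, Suz12 was thus higher in the negative-control library, the one that serves as its comparator for the mimic.

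Jarid2 and Kdm6b, lower in knockout cells, had levels in mimic-transfected cells whose counting intervals also lay below those of wild-type cells. Jarid2 had 268 counts in the mimic library and 449 in the wild-type library, and Kdm6b had 702 and 1177. In the authors' deposited table the log2 ratio of mimic to wild type was -0.74 for Jarid2, with a false discovery rate of 9.11e-12, and -0.75 for Kdm6b, with 2.34e-29, where 49.6% of genes lay under 0.05. That table divides unscaled counts and tests 2 single libraries by PoissonDis, so its rates reflect counting error alone. In the authors' deposited table Ezh2 had 0.31 between knockout and wild type at a false discovery rate of 0.00202, where 49.2% of genes lay under 0.05. Between mimic and negative control the authors' deposited table gives -0.24 for Ezh2 at a rate of 0.216, and 24.4% of genes lay under 0.05.

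Between mimic and negative control, a call among related genes was made in 1 list only, the cell cycle inhibitors, and there for 1 scarce gene. Of all measured genes 1.21% were called in either direction. Accessory PRC2 subunits had a median of 0.06 with 0 of 8 called, led by Phf1 at 0.47 (0.22 to 0.73) and Mtf2 at 0.36 (0.16 to 0.56). Phf1 had 14.1 TPM with the mimic and 10.07 TPM with the negative control, and against untransfected knockout cells its ratio was -0.05 (-0.29 to 0.18). Aebp2 stood at 0.29 (0.18 to 0.40), Phf19 at 0.12 (-0.19 to 0.44), Lcor at -0.11 (-0.30 to 0.08) and Lcorl at -0.14 (-0.33 to 0.05). On TPM the ratio of Phf19 was 0.37. Its implied transcript length had its extremes in these libraries, 2570 nucleotides with the mimic and 3032 with the negative control. Rbbp7 stood at -0.01 (-0.09 to 0.07) and Epop at -0.01 (-0.40 to 0.38). To untransfected knockout cells, however, Epop had 0.72 (0.27 to 1.21) with the mimic and 0.73 (0.28 to 1.21) with the negative control. Against untransfected knockout cells Aebp2 was at 0.0077 (-0.10 to 0.12) with the mimic and at -0.28 (-0.39 to -0.17) with the negative control, and Mtf2 at 0.15 (-0.05 to 0.36) and -0.20 (-0.42 to 0.01). PRC1 subunits had a median of -0.02 with 0 of 22 called, and the largest ratios were those of Pcgf3 at 0.73 (0.63 to 0.84) and of the scarce Scml2 at 0.73 (-0.16 to 1.73). Pcgf3 had 1798 counts with the mimic and 1155 with the negative control, and its ratio to untransfected knockout cells was 0.17 (0.07 to 0.27), with the negative control itself at -0.56 (-0.67 to -0.45) to those cells. Bmi1, the PRC1 gene with an 8-base site, stood at -0.02 (-0.15 to 0.11).

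In the H3K4 complex 0 of 9 were called and the largest were Pagr1a at -0.26 (-0.46 to -0.06) and Ash2l at 0.26 (0.13 to 0.38). In PR-DUB 0 of 10 were called, with Asxl3 at 0.47 (-0.30 to 1.28) and Hcfc1 at 0.25 (0.18 to 0.31). Among the other partners of Rbbp4, 0 of 16 were called, and Gatad2a, of the NuRD complex, stood at 0.60 (0.50 to 0.71) and Lin54 at -0.36 (-0.55 to -0.16). The negative control itself stood off from untransfected knockout cells for 3 of these genes, with -0.40 (-0.51 to -0.29) for Gatad2a, -0.23 (-0.36 to -0.11) for Ash2l and 0.26 (0.06 to 0.45) for Lin54. With the mimic those ratios were 0.21 (0.10 to 0.31), 0.02 (-0.10 to 0.15) and -0.10 (-0.31 to 0.11). Proliferation genes had a median of 0.01 with 0 of 20 called, and Ccnb1 at -0.32 (-0.50 to -0.15) and Uhrf1 at 0.29 (0.15 to 0.42) were the farthest from 0. NF-kB response genes had a median of 0.14 with 0 of 9 called, with Il6 at -0.65 (-1.08 to -0.23) and Cxcl1 at -0.43 (-1.06 to 0.17). To untransfected knockout cells, the mimic library had -0.33 (-0.79 to 0.13) for Il6 and -0.86 (-1.47 to -0.30) for Cxcl1. The 5 measured developmental regulators had a median of 0.02 with 0 called, with Pax3 at -0.16 (-0.99 to 0.65) and Tbx5 at 0.13 (-0.16 to 0.43). Of the 3 cell cycle inhibitors 1 was called lower, Cdkn1c, with 9 counts with the mimic and 24 with the negative control, a ratio of -1.23 (-2.61 to -0.16). Cdkn1c passed the filter of 1 CPM only through the negative control, at 1.21 CPM against 0.486 CPM with the mimic. Of all measured genes 0.352% were called lower. Cdkn2a and Cdkn2b both stood at -0.01.

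The genes whose profile over the 4 libraries was most like that of Ezh2 were Psmc3, a proteasome subunit, Usp8, a deubiquitinase of endosomes, Hacd4, Pcmt1, a protein repair methyltransferase, and Tpr of the nuclear pore. Likeness was the Euclidean distance between centred log2 CPM profiles over the 4 libraries, among 9455 genes with a mean of at least 10 CPM, that is, counts scaled to the size of the library. Their distances were 0.0112, 0.0144, 0.0158, 0.0184 and 0.0203. The other PRC2 subunits were farther away, with Ezh1 at rank 598, Eed at 1634, Suz12 at 1651 and Rbbp4 at 1676, and Jarid2 and Kdm6b stood at ranks 8365 and 8788. The 20 proliferation genes stood between rank 1543, for E2f1, and rank 9166, for E2f8. The distances of Ezh1 (0.124), Eed (0.187), Suz12 (0.188) and Rbbp4 (0.189) were of the size of counting error. The counting interval of Ezh2 alone, between negative control and untransfected knockout, ran from -0.22 to 0.17. Which genes lie nearest to Ezh2, and the order of these subunits, are thus not resolved. With 4 points and single libraries, such ranks describe these libraries only.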

How the data were processed

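Gene-level RNA-seq values of 4 libraries were used. The submitters' processing notes name FastQC, HISAT and Bowtie2 and the builds GRCm38.p6 and mm10, without roles; the counting tool, annotation and strand setting are not stated there. The deposited estimated counts are not scaled by library size, per the file headers and values. TPM and FPKM were deposited by the authors, FPKM being a multiple of TPM within a library. Normalized counts deposited by the authors, a signal of counts divided by a size factor, were not used. The authors' second table holds log2 ratios of unscaled counts with PoissonDis p-values, per the file headers.

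Counts were scaled here by edgeR 4.0.16 TMM factors of 0.997, 1.02, 1.00 and 0.978 (mimic, negative control, knockout, wild type) in R 4.3.3. Log2 ratios used a prior of 1 count, with rounding to whole counts in the exact conditional binomial (Clopper-Pearson) intervals at 95%. Reads are not independent molecules, so intervals cover counting error only. Genes reaching 1 CPM in 1 of the compared libraries were measured; a floor of 3 counts is 0.152 to 0.17 CPM. The code of the calls was run on simulated counts with Poisson counting error only, the error that the intervals assume. That run cannot tell how the calls fare under biological spread. There were 4 comparisons. Members and lists were chosen with earlier results of these data known. Named were all members and accessory PRC2 subunits, the 4 (knockout) and 2 (mimic) farthest measured genes of each other list, all sex-linked genes listed and the 5 genes most like Ezh2; Bmi1 and the search for AATAAA were added after values were seen. 1 gene that this rule names is not reported here. Spreadsheet dates in 26 symbols were replaced by the RefSeq symbol of the same Entrez identifier. The 3′ UTRs are those of GENCODE M21, found for 96.2% of genes. Alternatives were total-count scaling, DESeq2 1.42.0 size factors, TPM, a prior of 5, and other filters.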

Additional observations from a re-analysis of the deposited data

How the results depend on the processing

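Over the 4 comparisons and the alternatives of scaling and prior, 126 of 128 log2 ratios of the 8 members stayed within their counting interval. The 2 that did not were those of Suz12 (0.09) and Rbbp4 (-0.04) between knockout and wild type on TPM, and 11 of the 128 changed sign, none of them a called gene. Members called between knockout and wild type numbered 0, but 1 on TPM (Kdm6b) and 2 at 1.5-fold. Counts over all genes moved more with the filter. At 5 CPM or more the lower calls were 562 instead of 897 in knockout against wild type; the higher and lower calls were 43 and 10 instead of 107 and 44 in mimic against negative control, 3 and 9 instead of 33 and 59 in mimic against knockout, and 5 and 33 instead of 37 and 90 in negative control against knockout. Without a filter they were 82 lower, 69 higher and 90 lower, and 74 higher and 136 lower in the last 3 comparisons, in that order. A prior of 5 gave 24 and 34 lower calls in the 2 mimic comparisons and 17 higher in the last. Fewer or more genes enter under another filter by construction. Depth limits the members with few counts, Jarid2 and Ezh2, whose intervals of the log2 ratio are the widest. No paired analysis was possible because each group has 1 library, and no library could be left out for the same reason.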
